A study of Mus musculus with 6 samples.

Results

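The clustered protocadherins are cell-surface adhesion proteins encoded in 3 neighbouring gene arrays, alpha, beta and gamma, on mouse chromosome 18. The protein-coding genes whose symbols begin with Pcdha, Pcdhb or Pcdhg on this chromosome were taken as members. There were 57 of them among the 43629 genes of the count files, of which 14 belong to the alpha, 22 to the beta and 21 to the gamma cluster. Polyadenylated RNA was sequenced from primary ventricular cardiomyocytes of CD-1 mouse embryos at embryonic day 13.5, for which the ventricles of a litter were pooled. Cells received 12 nM of a negative control siRNA (3 cultures) or 12 nM of a pool of 4 siRNAs against DNMT1 (3 cultures), and after 72 h cardiomyocytes were collected with an antibody to VCAM1, a surface protein of these cells. The treatment tag of the DNMT1 siRNA cultures names DNMT3a instead, whereas their titles and the transfection protocol name DNMT1. Nothing in the labels says that replicate cultures came from separate litters, so the p values measure the spread between cultures, which may be partly technical.

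Each alpha and gamma gene contributes a large variable exon with a promoter of its own, which is spliced to constant exons shared by the whole cluster, while beta genes consist of the large exon alone. In neurons, each cell uses a few of the variable promoters, chosen with the help of the insulator protein CTCF and cohesin and kept silent elsewhere by DNA methylation. The last genes of the alpha and gamma clusters, called C-type, follow other rules and are used more uniformly. Proteins on opposed membranes bind only their own kind, which lets a neuron recognize its own branches. DNMT1 is the enzyme that copies DNA methylation to the new strand at replication. The comparison therefore asks how the transcripts of a methylation-controlled gene family stood after reduction of this enzyme in heart muscle cells, with the beta genes, whose reads are the least shared with other genes, as the main readout.

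The knockdown was present in every DNMT1 siRNA culture. Normalized counts of Dnmt1 (reads scaled to a common effective library size) were 3446, 2760 and 2878 with negative siRNA and 772, 786 and 666 with DNMT1 siRNA, or 24.5% of the negative siRNA mean. The log2 fold change was -2.03 (SE 0.109), with an adjusted p of 0.000192 in edgeR's quasi-likelihood test. Dnmt3a, the gene of the conflicting tag, had a log2 fold change of 0.24 and an adjusted p of 0.0919.

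Library depth and makeup differed between the treatments. Reads on genes numbered 27852412 to 35896018 with negative siRNA and 13739561 to 16186310 with DNMT1 siRNA. Of the uniquely mapped reads, 14.6% to 17.5% lay outside annotated exons with negative siRNA against 24.4% to 32.0% with DNMT1 siRNA (exact two-sided permutation p = 0.1, the smallest that 3 cultures against 3 can give). DNMT1 siRNA replicates 2 and 3 stood apart from replicate 1, with 26011 and 25337 genes detected against 20761. They held 464 and 401 reads on olfactory receptor genes, most of which are little expressed outside the nose. Replicate 1 held 31 such reads and the deeper negative siRNA libraries 171, 358 and 173. Replicate 1 was thus low as well as replicates 2 and 3 high. Depth, reads outside exons and treatment moved together, and their part in the results was not tested.

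No clustered protocadherin was called with DNMT1 siRNA. A gene counted as called when its adjusted p (Benjamini-Hochberg over 15470 tested genes) was below 0.05 and its fold change above 1.5. Of the 57 members, 38 had enough reads to be tested, namely 17 beta genes, 20 gamma genes and Pcdhac2. By edgeR's quasi-likelihood test 0 of these were called higher and 0 lower, where 4.26% of all genes were called higher and 2.23% lower. At an unadjusted p below 0.05 the count was 12 of 38, or 31.6%, close to the 29.2% of all genes. DESeq2 and edgeR's exact test each called 1 member higher, Pcdhgb2, where they called 4.49% and 5.42% of all genes higher. Without DNMT1 siRNA replicates 2 and 3, which leaves 1 treated library, 0 members were called in either direction, but so were only 12 higher and 3 lower of all genes. The estimates were imprecise, since the 95% interval stayed within 1.5-fold in both directions for 7 of the 38 members against 55.6% of all genes. A miss of the limits thus leaves room for changes above 1.5-fold in most members.

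Without the limit on fold change, 2 members had an adjusted p below 0.05. Pcdhb22 was higher and Pcdhgc5, a C-type gene, was lower with DNMT1 siRNA, where 6.81% of all genes were higher and 5.65% lower by the same rule.

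**Figure D1:**
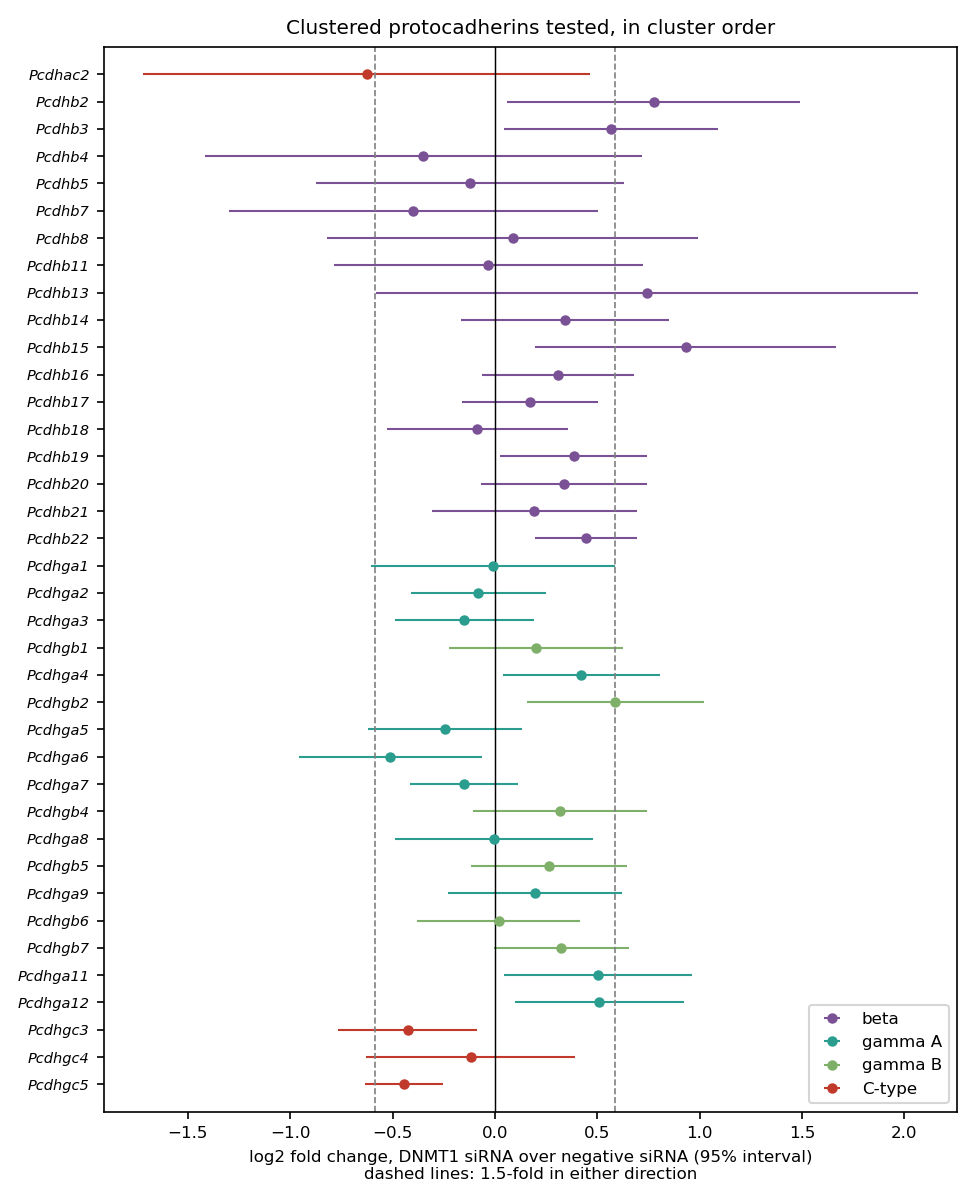
The log2 fold change of each of the 38 tested members (x axis, DNMT1 siRNA over negative siRNA) with its 95% interval, in cluster order from top to bottom and coloured by type. Beta genes lie mostly right of 0 and the 4 C-type genes left of 0, but no member passed both limits.

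The main readout, the beta genes, stood slightly higher with DNMT1 siRNA as a group. The beta cluster runs from 37264938 to 37524479 on chromosome 18 (GRCm38), and its genes have 1 exon in 18 cases and at most 2 in the other 4. Of the 17 tested beta genes, 12 had a positive log2 fold change (70.6%, against 49.3% of all genes). Their median log2 fold change was 0.31, against -0.005 over all genes. In 6 beta genes, Pcdhb2, Pcdhb3, Pcdhb15, Pcdhb19, Pcdhb20 and Pcdhb22, every DNMT1 siRNA culture lay above every negative siRNA culture (35.3% of those tested, against 18.3% of all genes). No beta gene showed the opposite pattern, which 17.7% of all genes did. The absence of the opposite pattern was not particular to the beta genes. Of 31 tested protein-coding neighbours of the arrays, 0 were lower in every treated culture. The neighbours did not share the shift in median, which was -0.005, and 7 (22.6%, against 18.3% of all genes) were higher in every treated culture. Of the tested beta genes, 5 of 17, or 29.4%, had an unadjusted p below 0.05, about the same as the 29.2% of all genes.

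The normalized counts of all 22 beta genes summed to 1134, 980 and 1051 with negative siRNA and to 1273, 1281 and 1344 with DNMT1 siRNA. The mean was 1055 ± 77.5 (SD, n = 3) against 1299 ± 39.2 (SD, n = 3), or 123% of negative siRNA, and the cultures of both treatments did not overlap. No test was made on this sum, because the members were chosen with earlier results of these data known. Single-exon protein-coding genes as a whole, which share the simple gene structure, had a median log2 fold change of -0.008 over 278 tested genes. Of these, 18 were called higher and 13 lower, or 6.47% and 4.68%, against 4.26% and 2.23% of all genes. A part of gene structure in the beta values was not tested.

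**Figure D2:**
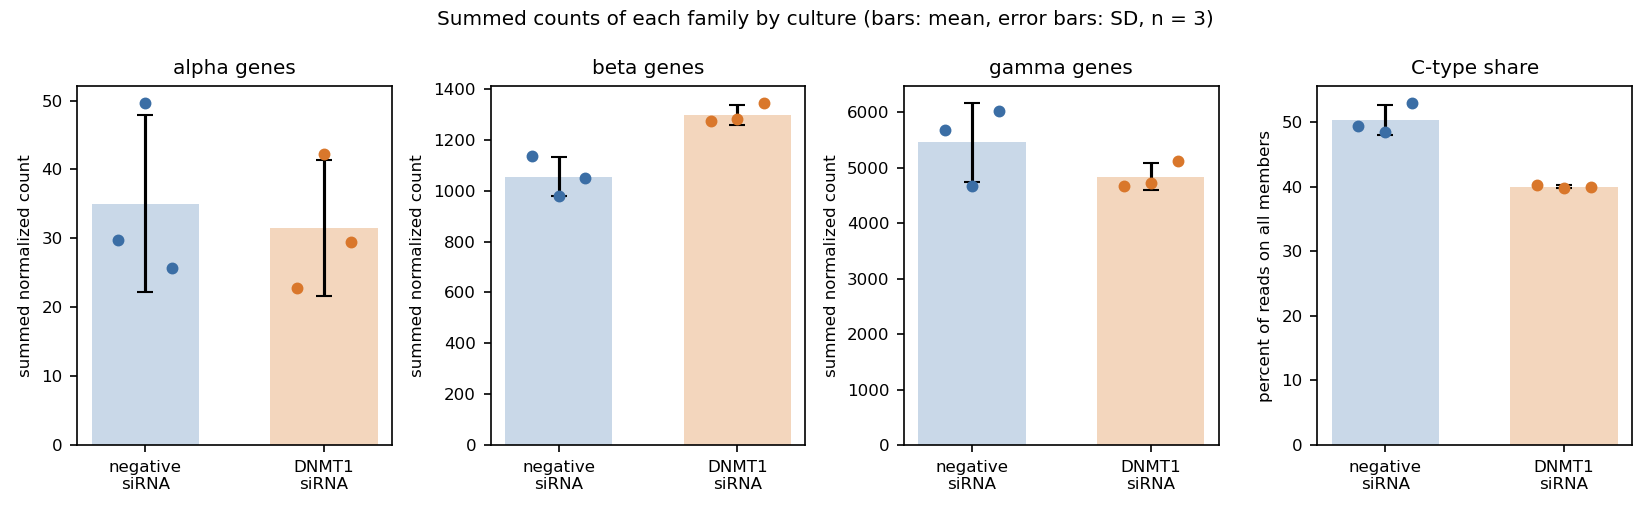
Summed normalized counts of the alpha, beta and gamma genes and the C-type share of member reads in percent (y axes, from 0) in the 3 cultures of each treatment (points), with means (bars) and SD (error bars). The beta sums of the DNMT1 siRNA cultures, 1273 to 1344, lie above the negative siRNA sums, 980 to 1134, and the C-type share lies below it, at 39.7% to 40.2% against 48.5% to 52.9%.

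Pcdhb22, the last and most abundantly counted beta gene, carried the smallest p of the cluster. It lies at 37517871 to 37524479 on the plus strand and had normalized counts of 204, 198 and 214 with negative siRNA and of 279, 262 and 296 with DNMT1 siRNA. The lowest treated culture exceeded the highest control culture. The fold change was 1.36 (95% interval 1.14 to 1.62), with a log2 fold change of 0.44 (SE 0.109) and an adjusted p of 0.0353 in edgeR's quasi-likelihood test. The adjusted p ranged from 0.0215 to 0.574 over 13 alternative fits and was below 0.05 in 6 of them. The log2 fold change ranged from 0.38 to 0.48 over these fits.

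Pcdhb17 (37484795 to 37489454), the beta gene with the highest level per kb of exon, had normalized counts of 221, 159 and 193 with negative siRNA and of 219, 211 and 216 with DNMT1 siRNA. The groups overlapped, and the 95% interval of its fold change, 0.896 to 1.42, stayed within 1.5-fold. The same was true of Pcdhb18 (37489465 to 37494505), at 87.0, 82.0 and 79.3 against 61.7, 80.2 and 93.2, with an interval of 0.694 to 1.28. These were the only beta genes with an interval inside 1.5-fold.

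Pcdhb19 (37496991 to 37504128) had normalized counts of 122.5, 97.9 and 124.4 with negative siRNA and of 160, 156 and 134 with DNMT1 siRNA. Pcdhb20 (37504264 to 37507822) had 57.8, 50.3 and 56.0 against 67.0, 70.0 and 70.3. Both genes were higher in each treated culture than in any control culture, by small margins. The adjusted p was 0.146 for Pcdhb19 (fold change 1.31, 95% interval 1.02 to 1.67) and 0.251 for Pcdhb20 (fold change 1.26, 95% interval 0.953 to 1.67).

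Pcdhb16 (37477814 to 37483038) had normalized counts of 135, 101 and 105 with negative siRNA and of 153, 133 and 137 with DNMT1 siRNA, so that negative siRNA replicate 1 overlapped the treated cultures. Pcdhb14 (37447656 to 37456350) had 69.4, 70.3 and 47.4 against 67.0, 81.6 and 89.95, again with overlap. Pcdhb21 (37513621 to 37518325) had 59.5, 55.2 and 55.2 against 55.0, 56.8 and 83.4. Only replicate 3 of the DNMT1 siRNA cultures was high for Pcdhb21. Without it the log2 fold change passed from 0.19 to -0.04. Adjusted p values of Pcdhb16, Pcdhb14 and Pcdhb21 were 0.252, 0.349 and 0.597.

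**Figure D3:**
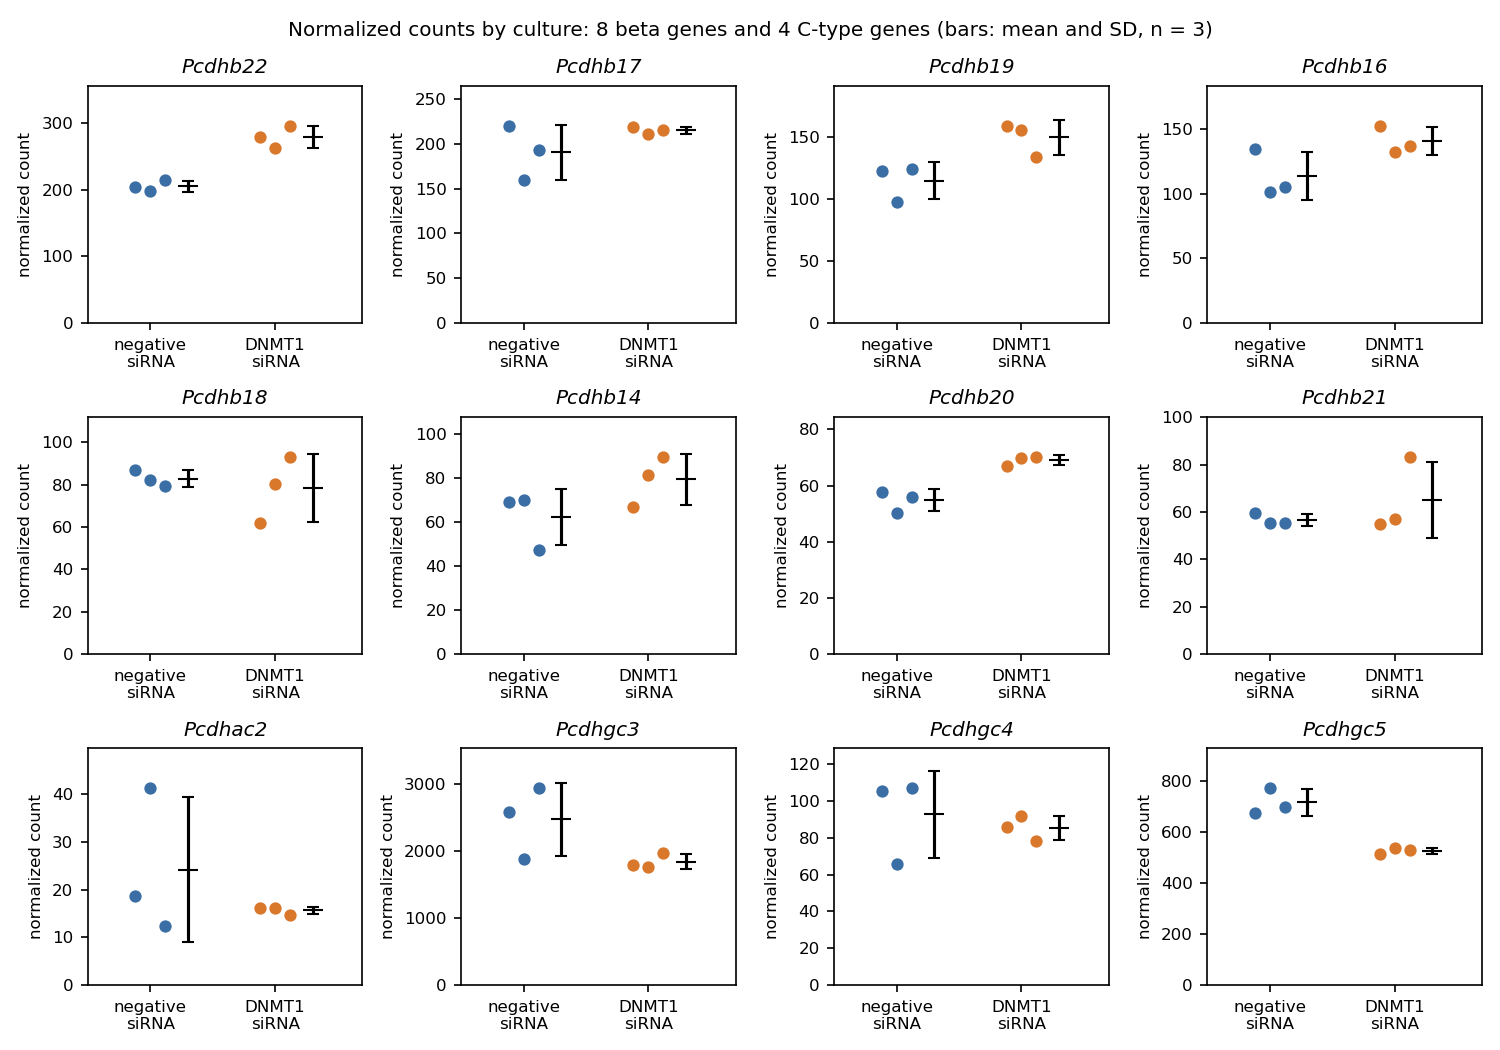
Normalized counts (y axes, from 0) of the 8 most counted beta genes and the 4 tested C-type genes in each culture (points), with the mean and SD of each group (bars, n = 3). Pcdhb22 separates into 198 to 214 against 262 to 296, and Pcdhgc5 into 675 to 774 against 514 to 538, in the opposite direction.

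The largest beta estimates belonged to genes with few reads. Pcdhb15 went from a mean normalized count of 14.6 ± 3.23 to 28.2 ± 7.14 (SD, n = 3), a 1.91-fold difference with a 95% interval of 1.14 to 3.18 and an adjusted p of 0.0976. Pcdhb2 had 26.6 ± 9.85 against 45.8 ± 2.96 (1.71-fold, 95% interval 1.04 to 2.81, adjusted p = 0.144). Pcdhb13 had 8.12 ± 6.44 against 13.3 ± 4.01, with an interval from 0.669 to 4.19, and its log2 fold change of 0.74 became 1.56 without negative siRNA replicate 3. The estimates of all 3 exceeded 1.5-fold and none passed the adjusted p limit. Pcdhb3 had 33.1 ± 3.95 against 49.1 ± 7.52 (1.48-fold, adjusted p = 0.144). The remaining tested beta genes, Pcdhb4, Pcdhb5, Pcdhb7, Pcdhb8 and Pcdhb11, had mean normalized counts of 9.41 to 24.1 in either group and log2 fold changes between -0.40 and 0.09. That of Pcdhb4, -0.35, became -0.99 without DNMT1 siRNA replicate 2 and 0.01 without DNMT1 siRNA replicate 1. Pcdhb1, Pcdhb6, Pcdhb9, Pcdhb10 and Pcdhb12 had 7 to 49 reads in all 6 libraries together and were not tested.

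Levels were compared between genes as CPM (counts scaled to library size) per kb of countable exon, meaning exonic bases that belong to a single gene. They were higher among the later beta genes than among the earlier ones. Pcdhb1 to Pcdhb13 had a median level of 0.110 with negative siRNA (range 0.0127 to 0.435), and Pcdhb14 to Pcdhb22 a median of 0.742 (range 0.240 to 1.89). Spearman's rho between the order of the 22 genes and their level was 0.597, as a description over genes that share the same libraries. Pcdhb16, Pcdhb17, Pcdhb19 and Pcdhb22 together held 56.8% to 60.5% of beta reads with negative siRNA and 58.3% to 63.6% with DNMT1 siRNA, and the ranges overlapped. As a whole the beta cluster stood at 0.502 to 0.581 CPM per kb with negative siRNA and 0.652 to 0.689 with DNMT1 siRNA. The median tested gene stood at 4.64 to 4.75. The olfactory receptor genes, taken as a rough floor, stood at 0.00136 to 0.00336 with negative siRNA and 0.000565 to 0.00920 with DNMT1 siRNA. Beta genes as a whole were thus weakly expressed, above the olfactory receptor genes in every culture.

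**Figure D4:**
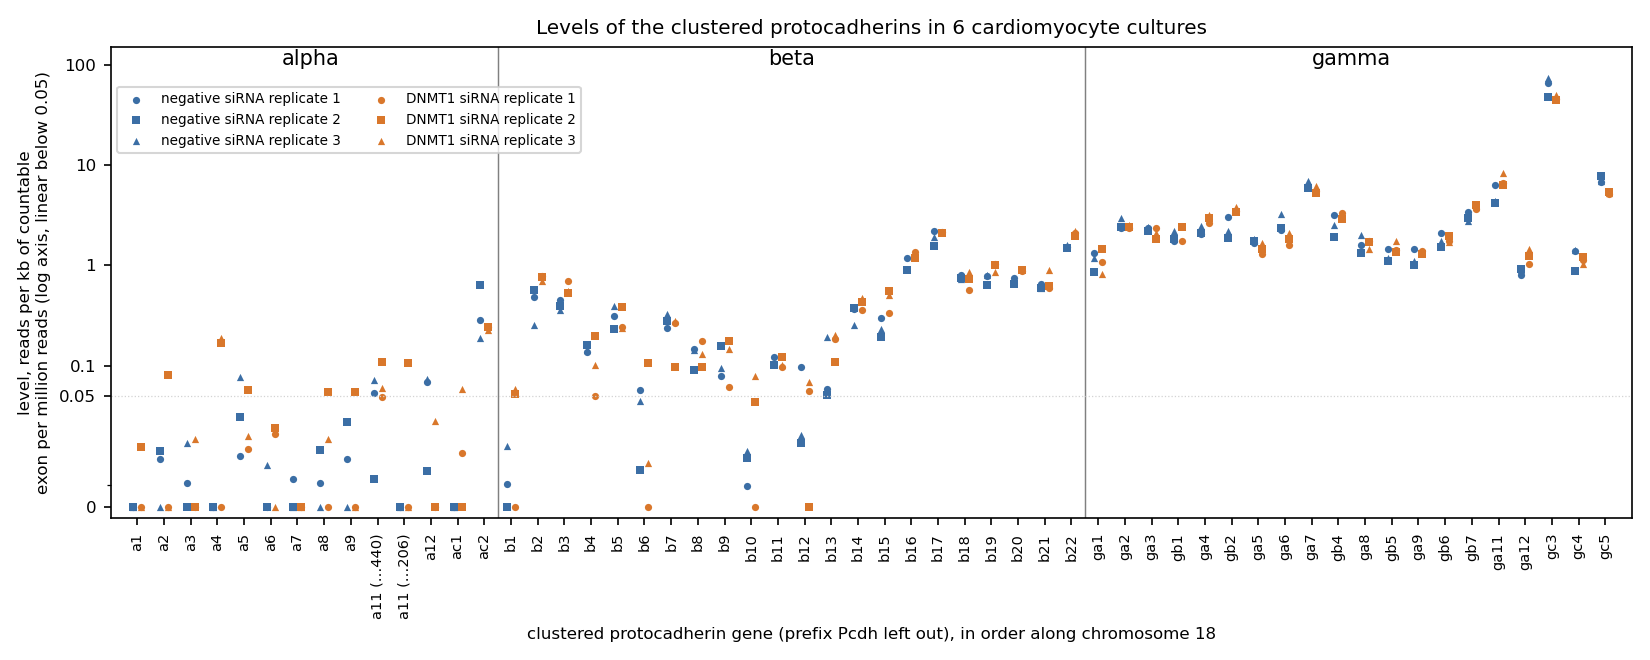
Levels of the 56 members with countable exon (y axis, CPM per kb of countable exon, log scale above 0.05 and linear below) in cluster order in each of the 6 cultures. Alpha genes except Pcdhac2 lie near 0, beta genes from Pcdhb14 on have a median of 0.742 against 0.110 for the earlier ones, and Pcdhgc3 stands highest, at a mean of 62.4 with negative siRNA.

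Alpha genes were close to silent. The 12 alternate alpha genes and Pcdhac1 had between 1 and 19 reads each over all 6 libraries, and none was tested. As a group the alternate alpha genes stood at 0.0153 to 0.0244 CPM per kb with negative siRNA and at 0.00992 to 0.0485 with DNMT1 siRNA, with overlap. DNMT1 siRNA replicate 2, one of the libraries that stood apart, gave the highest of these values. Pcdha4, Pcdhac1, Pcdha1 and the gene ENSMUSG00000102206 had no read in any negative siRNA library and at most 2 in any DNMT1 siRNA library. They did not pass the filter on low counts, so no fold is given. The symbol Pcdha11 is carried by 2 identifiers, ENSMUSG00000007440 and ENSMUSG00000102206, which were kept apart. At this depth a change of the alternate alpha genes was not detectable.

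C-type genes leaned the other way from the beta genes. All 4 that were tested, Pcdhac2, Pcdhgc3, Pcdhgc4 and Pcdhgc5, had negative log2 fold changes, with a median of -0.43, but those of Pcdhac2 and Pcdhgc4 came to about 0 without a single library. Their summed normalized counts were 3379, 2762 and 3763 with negative siRNA and 2403, 2402 and 2592 with DNMT1 siRNA, without overlap. As a share of all member reads they held 48.5% to 52.9% with negative siRNA and 39.7% to 40.2% with DNMT1 siRNA. Beta genes held 14.8% to 17.2% against 20.7% to 21.3%. Both are shares of the same total, so fewer C-type reads alone would raise the beta share. Most of the C-type sum (means 3301 and 2466) was Pcdhgc3 (means 2468 and 1837), whose groups overlapped. No test was made on these sums and shares.

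Pcdhgc5 (37819513 to 37841873, 4 exons) had normalized counts of 675, 774 and 699 with negative siRNA and of 514, 538 and 528 with DNMT1 siRNA. The groups stood well apart relative to their spread. The log2 fold change was -0.44 (SE 0.083, 95% interval -0.63 to -0.25), with an adjusted p of 0.0144 in edgeR's quasi-likelihood test, or 1.36-fold lower, which is under the limit of 1.5-fold. Over the 13 alternative fits the adjusted p ranged from 0.00088 to 0.468 and was below 0.05 in 9. It was above 0.05 whenever a DNMT1 siRNA culture was left out.

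Pcdhgc3 (37806364 to 37841873) was by far the most expressed member, at 62.4 ± 13.7 CPM per kb (SD, n = 3) with negative siRNA, above 96.1% of tested genes. Its normalized counts were 2580, 1881 and 2944 with negative siRNA and 1786, 1756 and 1968 with DNMT1 siRNA. Negative siRNA replicate 2 lay among the treated cultures and the other two lay above them. The log2 fold change was -0.43 (SE 0.149) and the adjusted p 0.0996. Without negative siRNA replicate 2 the log2 fold change was -0.59 and the adjusted p 0.00158, so that this library decided the call (2.78% of all genes were called lower without it), and over all alternatives the adjusted p ranged from 2.21e-05, with no filter on low counts, to 0.65. Fibroblast markers in the same library did not all go 1 way. Its normalized count of Col1a1 was 653662, against 428238 and 432434 in the other negative siRNA libraries. Col1a2, Col3a1, Lum, Postn and Pdgfra were also highest there among the controls. Dcn (5577 against 7085 and 7288) and Tcf21 (3648 against 3910 and 4475) were lowest there. The cardiomyocyte marker sum was highest there as well, at 57786. A relation of these markers to Pcdhgc3 was not tested.

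Pcdhgc4 (37815079 to 37841873) had normalized counts of 106, 65.5 and 107 with negative siRNA and 85.8, 91.8 and 78.5 with DNMT1 siRNA, and Pcdhac2 (37143503 to 37187657) had 18.7, 41.4 and 12.4 against 16.1, 16.0 and 14.7. In both genes negative siRNA replicate 2 was the library out of range, low for Pcdhgc4 and high for Pcdhac2. Without it the log2 fold change of Pcdhac2 passed from -0.63 to -0.01. That of Pcdhgc4, -0.12, was -0.005 without negative siRNA replicate 3. The adjusted p was 0.762 for Pcdhgc4 and 0.423 for Pcdhac2. Pcdhac1 had 3 reads in all libraries together.

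Most other gamma genes stood above most beta genes in level. The gamma cluster runs from 37661793 to 37841873, because every gene is annotated to the shared constant exons at its end. Reads on those exons overlap many genes and were not assigned, so the values rest on the variable exon of each gene. Levels of the A-type and B-type genes with negative siRNA ranged from 0.871 CPM per kb for Pcdhga12 to 6.27 for Pcdhga7, with Pcdhga11 at 4.94 and Pcdhgb7 at 3.05. Pcdhga10 had no read in any library. All of its exonic bases are shared with other genes when strand is ignored, so reads could not have been assigned to it in an unstranded count.

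The 6 gamma B genes all had positive log2 fold changes, with a median of 0.29. They were Pcdhgb1 at 0.20, Pcdhgb2 at 0.59, Pcdhgb4 at 0.32, Pcdhgb5 at 0.26, Pcdhgb6 at 0.02 and Pcdhgb7 at 0.32. Their normalized counts summed to 924, 676 and 778 with negative siRNA and to 949, 972 and 1042 with DNMT1 siRNA. The treated sums were higher, although negative siRNA replicate 1 came close to the lowest of them. Of the 11 tested gamma A genes 4 had positive values, and the median was -0.01. Pcdhga4, Pcdhga11 and Pcdhga12 stood at 0.42, 0.50 and 0.51, Pcdhga6 at -0.51, and Pcdhga1, Pcdhga2, Pcdhga3, Pcdhga5, Pcdhga7, Pcdhga8 and Pcdhga9 between -0.24 and 0.20.

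Pcdhgb2 (37689828 to 37841873) lay at the limits. Its normalized counts were 182, 112 and 133 with negative siRNA and 209, 204 and 231 with DNMT1 siRNA, without overlap, and its fold change was 1.5 (95% interval 1.11 to 2.03) with an adjusted p of 0.079. It was called higher by DESeq2 (adjusted p = 0.0496), by edgeR's exact test (adjusted p = 0.0431) and without negative siRNA replicate 1 (log2 fold change 0.81, adjusted p = 0.0144). Over all 13 alternatives the adjusted p ranged from 0.0144 to 0.67. Without that library 4.14% of all genes were called higher. Pcdhga11 was also called only without negative siRNA replicate 1, at a log2 fold change of 0.72 and an adjusted p of 0.0329, within a range of 0.0329 to 0.774. In both genes this library held the highest of the control values.

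Over the whole gamma cluster, 4 of 20 tested genes (Pcdhga4, Pcdhga12, Pcdhgb2 and Pcdhgb7) were higher in every treated culture and 2 (Pcdhga6 and Pcdhgc5) lower, or 20% and 10% against 18.3% and 17.7% of all genes. The share of higher genes was close to that of all genes. Summed normalized counts of the cluster were 5676, 4666 and 6034 with negative siRNA and 4676, 4723 and 5117 with DNMT1 siRNA, and the groups overlapped. Pcdhgc3 alone held 40.3% to 48.8% of gamma reads with negative siRNA and 37.2% to 38.4% with DNMT1 siRNA. Pcdhgb8, a polymorphic pseudogene within the cluster and so not a member, had a log2 fold change of 0.71 and an adjusted p of 0.112.

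Of the genes known to act on the clusters, Dnmt1 was the one called. Of 26 genes for promoter choice and silencing, all tested, the other 25 were not called, and the median log2 fold change was -0.07. Ctcf, which loops the variable promoters to their enhancer, had normalized counts of 1625, 1416 and 1371 against 1345, 1414 and 1382 (log2 fold change -0.09, adjusted p = 0.496). Smchd1, a chromatin protein that keeps clustered protocadherin promoters silent, had 1732, 1597 and 1679 against 1657, 1670 and 1817 (log2 fold change 0.04, adjusted p = 0.756). Both genes overlapped between groups. Of 26 tested genes for the cleavage and intracellular partners of the proteins, such as kinases and secretases, 0 were called by edgeR's quasi-likelihood test, against 4.26% of all genes higher and 2.23% lower, and 4 had an unadjusted p below 0.05 (15.4%, against 29.2% of all genes). DESeq2 and edgeR's exact test also called 0.

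Among 19 tested protocadherins and large cadherins outside the clusters, edgeR's quasi-likelihood test called 0 higher (against 4.26% of all genes) and 2 lower (10.5%, against 2.23%). An unadjusted p below 0.05 was seen in 7 (36.8%, against 29.2% of all genes). DESeq2 and edgeR's exact test each also called 1 higher, Pcdh9. Those called lower were Fat4, at 2655 ± 105 against 1684 ± 32.9 (SD, n = 3; log2 fold change -0.66, adjusted p = 0.00119), and its partner Dchs1, at 3106 ± 361 against 1639 ± 122 (log2 fold change -0.92, adjusted p = 0.00174). Fat4 and Dchs1 form a receptor and ligand pair of planar cell polarity, and both fell, with every treated culture below every control culture. That pattern was seen in 4 of the 19 genes (21.1%, against 17.7% of all genes) and the opposite one in 4 (21.1%, against 18.3%). Of 12 tested classical cadherins, Cdh10 was called lower by edgeR's quasi-likelihood test (8.33%, against 2.23% of all genes), with a log2 fold change of -1.16 (adjusted p = 0.0329). DESeq2 also called this gene alone, and edgeR's exact test called Cdh6 lower and Cdh8 higher besides. The median log2 fold changes of these lists were 0.02 and 0.22, against 0.31 for beta genes.

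Within 1 Mb of the arrays on either side, 31 of 36 protein-coding neighbours were tested, with a median log2 fold change of -0.005. Of these, 2 were called higher and 0 lower, or 6.45% against the 4.26% of all genes called higher. Without the limit on fold change, 4 were higher (12.9%, against 6.81% of all genes) and 0 lower. In 7 neighbours (22.6%, against 18.3% of all genes) every treated culture lay above every control culture, and in 0 below. Fgf1, a growth factor, rose from 162 ± 58.3 to 434 ± 61.5 normalized counts (SD, n = 3; log2 fold change 1.43, adjusted p = 0.00932). DESeq2 called Fgf1 but not Spry4. Spry4, an inhibitor of growth factor signalling, rose from 1471 ± 224 to 2206 ± 65.5 (log2 fold change 0.59, adjusted p = 0.0124). Taf7, a transcription factor subunit encoded between the beta and gamma clusters, had normalized counts of 135, 148 and 124 against 184, 174 and 188 and an adjusted p of 0.0711. Slc25a2, a mitochondrial carrier in the same gap, had 36 reads in all and was not tested.

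**Figure D5:**
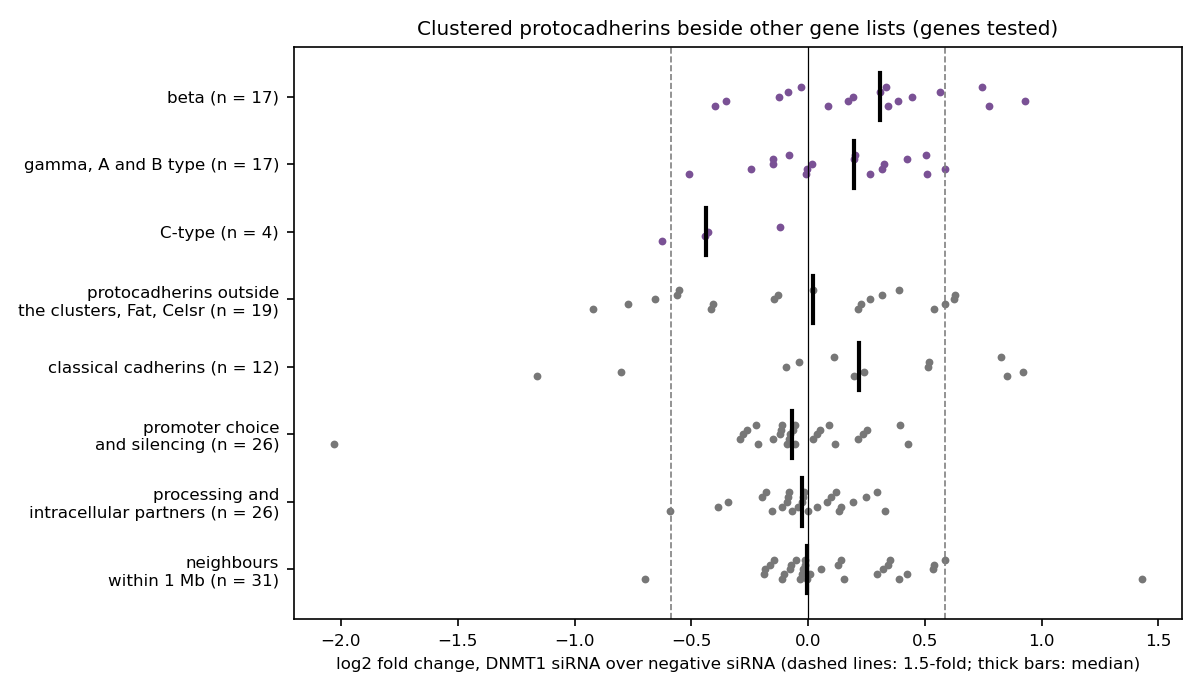
Log2 fold changes (x axis, DNMT1 siRNA over negative siRNA) of tested genes (points) in each list, with the median (thick bar) and the 1.5-fold limits (dashed lines). The beta median of 0.31 and the C-type median of -0.43 lie on opposite sides of 0, and the points beyond the limits in the other lists include Dnmt1 at -2.03 and Fgf1 at 1.43.

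Markers of several cell types moved with the treatment in the same libraries. The summed normalized counts of 10 cardiomyocyte markers were 44566 to 57786 with negative siRNA and 100347 to 122455 with DNMT1 siRNA. Of the 10, 8 (Tnnt2, Actn2, Myh6, Nkx2-5, Ryr2, Ttn, Mybpc3 and Myl2) were called higher (80%, against 4.26% of all genes). Of 8 fibroblast markers, Col1a1, Col1a2 and Dcn were called lower (37.5%, against 2.23% of all genes). The sum went from 783474 to 1208930 down to 594987 to 634860. Of 8 endothelial markers, Kdr, Emcn and Npr3 were called higher (37.5%, against 4.26% of all genes), with sums of 2023 to 2675 against 4625 to 4931. Much of that rise was Npr3, with a mean of 333 against 2232. Log2 fold changes were positive in 6 of the 8 and negative in 2, Tek and Nfatc1. Tek was lower in every treated culture (-0.35, adjusted p = 0.0373 in edgeR's quasi-likelihood test), and Nfatc1 was at -0.11. Called lower were Pdgfrb among smooth muscle and pericyte markers (7 of 8 tested, 14.3% called) and Krt19 among 6 epicardial markers (16.7% called). S100b among Schwann cell and neural crest markers (4 of 8 tested) was called higher (25%, against 4.26% of all genes). Of 7 tested macrophage markers (8 listed), edgeR's quasi-likelihood test called 0. Of these, 4 had an unadjusted p below 0.05 (57.1%, against 29.2% of all genes). DESeq2 and edgeR's exact test each called 4 macrophage markers lower. In bulk RNA fewer cells of a type and less RNA per cell cannot be told apart.

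Neuron markers were examined because clustered protocadherins are best known from neurons. Of 12 such genes, 5 were tested and 0 were called by edgeR's quasi-likelihood test, by DESeq2 or by edgeR's exact test. The quasi-likelihood test called 4.26% of all genes higher and 2.23% lower. An unadjusted p below 0.05 was seen in 1 of the 5 (20%, against 29.2% of all genes). Their summed normalized counts were 1998 to 3487 with negative siRNA and 2382 to 2499 with DNMT1 siRNA, nearly all from Tubb3 and Map2, which other cells also express. These 2 genes moved in opposite directions, Tubb3 from a mean of 1972 to 1555, with overlap, and Map2 from 563 to 807. In 2 of the 5 tested genes, Map2 and Nefm, every treated culture lay above every control culture (40%, against 18.3% of all genes). The opposite pattern was seen in 0. Snap25, Stmn2, Nefl and Th had at most 8.18 normalized counts in any library, Elavl3, Syp, Nefm and Syt1 at most 16.4, and Elavl4 at most 37.9. The part of cell mixture in the beta and C-type values was not tested.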

How the data were processed

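RNA-Seq libraries of 3 negative siRNA and 3 DNMT1 siRNA cultures were analysed, grouped by sample title. The authors mapped single-end reads of 75 bases to mm10 with TopHat2 after FastQC and deposited raw counts per Ensembl gene (HTSeq), without normalization. Reads overlapping several genes or mapped to several places were set aside, and the strand setting and tool versions are not given in the sources used here. Reads given to no gene were kept out of library sizes; they are the share outside exons.

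Genes passing filterByExpr (minimum count 10, minimum total 15) were tested in edgeR 4.0.16 (R 4.3.3) with the quasi-likelihood F test after TMM scaling, without a replicate block, with Benjamini-Hochberg adjustment. Log2 fold changes are DNMT1 siRNA over negative siRNA. Annotation was GENCODE for GRCm38, which held 42548 of 43629 identifiers. Countable exon excludes bases of any other gene on either strand. Of 46 genes with no such base but 1000 or more on their own strand, 38 had no read. Of 75-base windows, a median of 1.23% per beta gene also occurred in another gene's transcript (at most 8.96%, except 62.9% in Pcdhb12), against 48.0% to 90.8% for alpha and 32.9% to 98.4% for gamma genes.

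The members, gene lists and tests were chosen with earlier results of these data known. Every tested member is named, with values by culture for the 8 most counted beta genes and the tested C-type genes. Values by culture are also given for called members, of which the main test gave none. Pcdhgb2, Pcdh9, Cdh6, Cdh8 and the cell type markers that were not called were named after their values were seen. Of the other lists, genes called by the main test are named, plus Dnmt1, Smchd1, Ctcf and genes inside the arrays. Alternatives were DESeq2 1.42.0, relative log expression size factors, edgeR's exact test, other filters, a replicate block and leaving out libraries. Replicate files were no copies of each other, with chi-square per degree of freedom of 2.89 to 59.7. Intervals and floors cover counting error and spread between these cultures only.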

Additional observations from a re-analysis of the deposited data

Results flagged for a closer look

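Reads that could not be given to a single gene were more frequent with DNMT1 siRNA, in classes of reads that no comparison used. Reads that overlapped exons of more than 1 gene made up 3.58% to 3.65% of uniquely mapped reads with negative siRNA and 6.02% to 6.35% with DNMT1 siRNA, with a treated mean of 6.154%. Reads mapped to more than 1 place made up 41.3% to 42.5% of all alignments with negative siRNA and 48.3% to 52.9% with DNMT1 siRNA, with a treated mean of 51.01%. Both were above the control level in all 3 treated cultures. Reads on the constant exons of the alpha and gamma clusters belong to the first class, but how many of its reads they make up was not tested.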

How the results depend on the processing

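Over all genes, 659 were called higher and 345 lower. With no filter on low counts these were 994 and 701, with no limit on fold change 1054 and 874, and over the 6 fits without 1 library 255 to 823 and 112 to 472. Without DNMT1 siRNA replicates 2 and 3 together, an alternative chosen after seeing the data in which the lone treated library was assumed to vary like the controls, they were 12 and 3. Members called higher numbered 0, but 1 with DESeq2, 1 with edgeR's exact test, 1 with no limit on fold change and 0 to 2 without 1 library. Members called lower numbered 0, but 1 with no limit on fold change and 0 to 1 without 1 library. Beta genes called higher numbered 0, but 1 with no limit on fold change. The difference in reads outside exons was 12.9 percentage points of unique reads, 4.74 points as a share of all alignments and 7.99 points without DNMT1 siRNA replicates 2 and 3 together.

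Over those of 13 alternative fits in which they passed the filter, 26 of 38 members kept the sign of their log2 fold change, and 457 of 479 values had the sign of the reported one. Over the fits without 1 library (6, or 3 for Pcdhb4, Pcdhb8 and Pcdhb11, which passed the filter only in those without a DNMT1 siRNA library), 10 members passed through 0, namely Pcdhb4 (-0.9937 to 0.0107), Pcdhb5 (-0.3839 to 0.0675), Pcdhb8 (-0.2027 to 0.2758), Pcdhb11 (-0.134 to 0.01), Pcdhb18 (-0.2419 to 0.0402), Pcdhb21 (-0.0353 to 0.2791), Pcdhga1 (-0.2372 to 0.1453), Pcdhga2 (-0.1449 to 0.0249), Pcdhga8 (-0.1343 to 0.1676) and Pcdhgb6 (-0.0887 to 0.1529). With no filter Pcdhgb6 was at -0.0128. Without DNMT1 siRNA replicates 2 and 3 together, Pcdhb21 was at -0.049, Pcdhga3 at 0.0049, Pcdhgb1 at -0.1484, Pcdhga8 at 0.0831 and Pcdhgb6 at -0.0224. The cause was not tested. The summed counts of the beta, gamma and C-type genes kept their direction with other scalings and without any library. The log2 ratio of the alpha sum, -0.15, was 0.18 without negative siRNA replicate 2 and 0.03 without DNMT1 siRNA replicate 1.

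Replicate numbers were shared by both groups, and the labels do not say whether same-numbered cultures were prepared together. Deviations of same-numbered cultures correlated at 0.00637, -0.0208 and 0.0274, and those of differently numbered cultures at -0.0764 to 0.0650. Such values cannot decide whether the cultures were paired. A replicate block gave 513 genes higher and 285 lower, called 0 members and put Pcdhga8 at 0.0116. Low counts limit the alpha genes and the 5 untested beta genes most.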
